A study of Mus musculus with 5 samples.

Results

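Lysyl oxidases and collagen hydroxylases are the enzymes that modify collagen and elastin chains so that they can fold, and then be tied into fibers. These genes were taken by symbol from the deposited count table, Lox, Loxl1, Loxl2, Loxl3 and Loxl4 for the lysyl oxidases, Plod1, Plod2 and Plod3 for the lysyl hydroxylases, and P4ha1 and P4ha2 for the α subunits of prolyl 4-hydroxylase. All 10 were found among its 23478 genes, and all 10 passed the filter on low counts. The libraries were made from GFP+ cells sorted from mouse lungs at postnatal day 6 (P6), and the question was how deletion of Igf1r, the receptor for insulin-like growth factors, altered gene expression in these cells. Every pup carried Gli1creER, a tamoxifen-inducible Cre expressed from Gli1, and the Rosa-EGFP reporter, and was given tamoxifen (100 µg) on both P0 and P1. The series holds 2 control libraries (Igf1r Flox/Wildtype, with 1 floxed allele) and 3 Igf1r-deleted libraries (Igf1r Flox/Flox, with 2 floxed alleles), so the controls could lose 1 copy of the receptor as well. GFP marks cells in which Cre was active together with their progeny, not a single cell type. Genetic background was not uniform, and the sex of the pups behind each library is not given in the sources used here. No source used here says whether the libraries came from separate or pooled animals, so p-values measure the spread between these samples, which may be technical.

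Prolyl 4-hydroxylase hydroxylates proline in procollagen inside the endoplasmic reticulum, which lets the triple helix hold at body temperature, and lysyl hydroxylases hydroxylate lysine, which then carries sugars and forms the more stable crosslinks. Both need iron, oxygen, 2-oxoglutarate and ascorbate. After secretion, lysyl oxidases, which are copper enzymes, convert lysine and hydroxylysine to reactive aldehydes, and these condense into the crosslinks of collagen and elastin. In the alveolar stage of lung development the elastin fibers laid down in the tips of growing septa are built in this way.

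Library totals ran from 35116766 to 37597857 counts, and the chi-square per degree of freedom between 2 libraries sharing a genotype was 23.2 to 50.7, where counting error alone gives values near 1. Igf1r was at 324 CPM (counts scaled to a common library size with TMM factors) in both controls and at 140, 177 and 194 CPM in the 3 Igf1r-deleted ones, a log2 fold change of −0.93 (edgeR adjusted p = 0.354). The labelled cell type is fibroblast, and the fibroblast markers summed to 43686 to 44201 CPM in controls and to 30142 to 42565 CPM in Igf1r-deleted libraries, with 9 of 10 lower. Myofibroblast markers summed to 3633 to 4097 and 4093 to 4798 CPM (10 of 12 higher). RNA of other cell types was present, as epithelial markers summed to 1029 to 1105 and 500 to 1110 CPM (9 of 11 lower), endothelial markers to 556 to 571 and 273 to 788 CPM (5 of 10 lower), and hematopoietic markers to 404 to 581 and 212 to 472 CPM (10 of 10 lower). No marker of these 5 lists was at 0 in any library. The part of these shifts in the enzyme levels was not tested, and fewer cells of a type and less RNA per cell cannot be told apart in bulk RNA.

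None of the 10 genes differed between genotypes at an adjusted p under 0.05, and neither did any of the 15298 genes tested (0%). Lox, which crosslinks both elastin and fibrillar collagen, had the widest difference of the family, with a mean of 1597 ± 426 CPM in controls (SD, n = 2) and 1035 ± 243 CPM in Igf1r-deleted libraries (SD, n = 3). Plod1, a lysyl hydroxylase that acts on the helical part of collagen, was at 132 ± 6.64 and 103 ± 15.1 CPM. These were the only members with an unadjusted p under 0.05 from edgeR, 2 of 10 beside 12.4% of all genes tested. Both were lower, as were 6.75% of all genes, and 5.65% were higher. DESeq2 gave the same 2 genes before adjustment, where 13.2% of all genes had such a p, and 0 members after it, where 1.31% of all genes were called. Lox alone passed a criterion modelled on that of the study, with p from edgeR in place of DESeq and CPM in place of FPKM (absolute log2 fold change of at least 0.5, unadjusted p under 0.05, and over 1 CPM in 50% or more of a genotype's samples), 1 of 10 beside 5.83% of all genes, or 3.67% for lower and 2.16% for higher genes alone. In 4 of 10 the genotypes did not overlap, Lox and Plod1 with every Igf1r-deleted library lower (14.9% of all genes did so) and Loxl1 and Loxl3 with every one higher (16.0%), together 31.0% of all genes. By sign alone, 4 members were lower (47.7% of all genes were) and 6 were higher (52.3%).

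**Figure D1:**
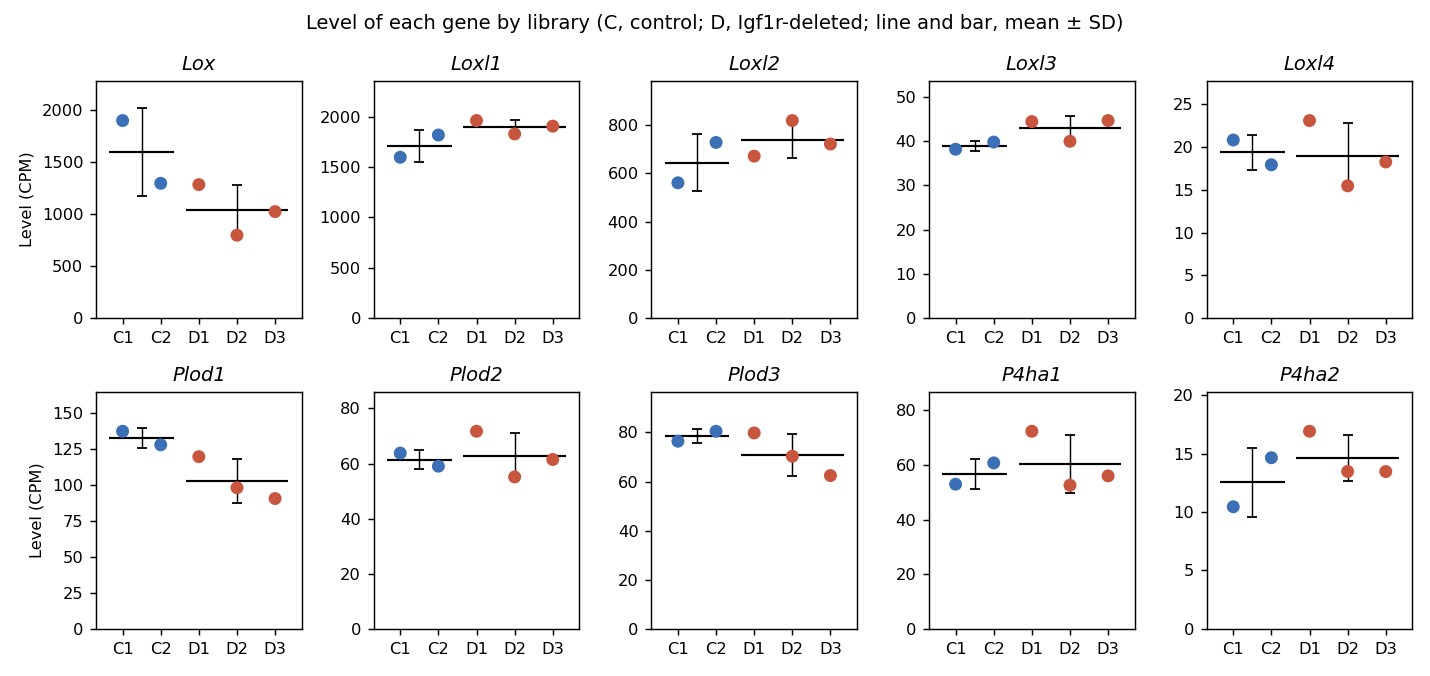
Each panel plots 1 gene, with the level in CPM from 0 on the vertical axis and the 5 libraries along the horizontal axis (C1 and C2, control; D1 to D3, Igf1r-deleted). Lines and bars are the mean ± SD of each genotype. Lox in D1, at 1283 CPM, lies next to C2 at 1295 CPM, and C1 stands above both at 1898 CPM.

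Among the lysyl oxidases, Lox (chromosome 18, 52516067 to 52529867, minus strand, mm10) was at 1898 and 1295 CPM in control replicates 1 and 2. In Igf1r-deleted replicates 1, 2 and 3 it was at 1283, 797 and 1024 CPM. Both controls lay above all 3 Igf1r-deleted libraries, but control replicate 2 exceeded Igf1r-deleted replicate 1 by only 12.6 CPM (0.970% of its level, with a counting error of 0.657%), while the controls themselves differed by 602 CPM. The log2 fold change was −0.63 (standard error 0.23, 95% interval −1.17 to −0.08, edgeR unadjusted p = 0.0305, adjusted p = 0.373). Without control replicate 1 it was −0.33, and the adjusted p spanned 0.129 to 0.9996 over the alternatives run with edgeR, DESeq2 and limma voom.

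Loxl1, which crosslinks elastin at sites where fibulin-5 holds it, lies on chromosome 9 (58287738 to 58313186, minus strand). It stood at 1596 and 1817 CPM in controls and 1960, 1827 and 1905 CPM in Igf1r-deleted libraries. The genotypes did not overlap, with a gap of 10.4 CPM between control replicate 2 and Igf1r-deleted replicate 2. This gap was 0.574% of the control level, close to the counting error of 0.536%, while the controls differed by 221 CPM. The direction was opposite to that of Lox. The log2 fold change was 0.15 (standard error 0.12, 95% interval −0.14 to 0.45, edgeR adjusted p = 0.627), and leaving out control replicate 1 or 2 gave 0.057 or 0.24. With DESeq2's size factors in place of TMM neither Loxl1 nor Loxl3 was without overlap.

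Loxl2 (chromosome 14, 69609068 to 69695834, plus strand), which acts on the collagen IV of basement membranes, was at 560 and 727 CPM in controls and at 670, 818 and 721 CPM in Igf1r-deleted libraries. The genotypes overlapped, and the log2 fold change was 0.19 (95% interval −0.16 to 0.55, edgeR adjusted p = 0.614), and leaving out control replicate 1, control replicate 2 or Igf1r-deleted replicate 2 gave 0.013, 0.38 or 0.11. Its level is uncertain because 46.45% of the 30-base sequences of its exons also occur in other genes, 43.3% in the pseudogene Gm21451 on the same chromosome, which is not in the count table. How reads matching both were assigned is not given in the sources used here. The remaining lysyl oxidases were far lower. Loxl3 (chromosome 6, 83034173 to 83052562, plus strand), needed for the palate and spine in mice, was at 38.2 and 39.8 CPM in controls and at 44.4, 40.0 and 44.6 CPM in Igf1r-deleted libraries. The genotypes were separated by 0.178 CPM, which is 0.446% of the control level and smaller than its counting error of 3.63%. The log2 fold change was 0.14 (95% interval −0.09 to 0.38, edgeR adjusted p = 0.569), and 11.6% of its exon bases overlap Htra2 on the opposite strand, whose reads cannot be told apart without strand. Loxl4 (chromosome 19, 42593982 to 42612813, minus strand), another collagen-directed member, was at 20.8 and 17.9 CPM in controls and 23.1, 15.5 and 18.3 CPM in Igf1r-deleted libraries, which span the controls (log2 fold change −0.03, 95% interval −0.46 to 0.40, edgeR adjusted p = 0.951). With library totals in place of TMM its sign turned (0.034).

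**Figure D2:**
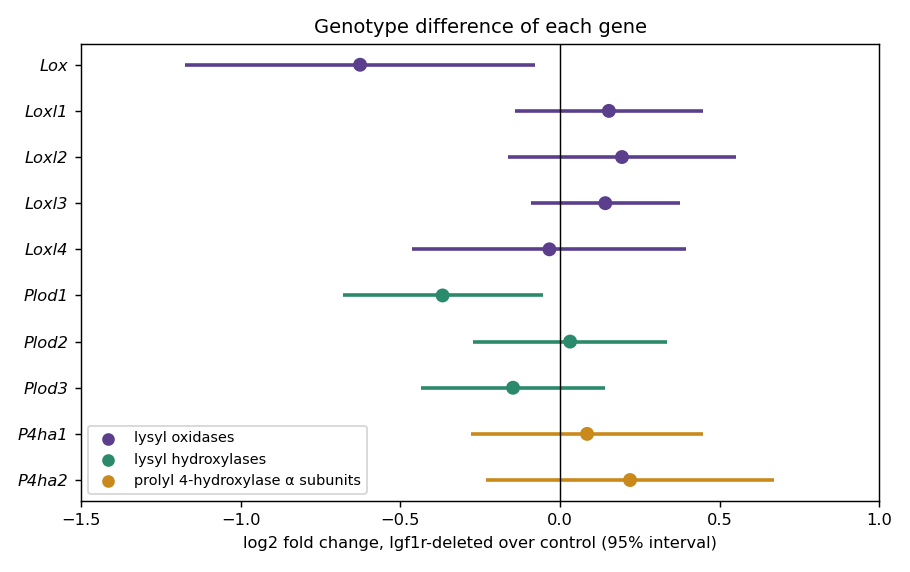
Points are log2 fold changes of Igf1r-deleted over control libraries from edgeR, 1 row per gene, lines are 95% intervals, and colors mark the families. The intervals of Lox (−1.17 to −0.08) and Plod1 (−0.68 to −0.05) lie below 0, and those of the other 8 genes cross it.

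Since Lox and Loxl1 lay on opposite sides, the make-up of the lysyl oxidase transcripts was set out from levels per kilobase of exon, a comparison chosen after the levels had been seen and given without a test. Lox made up 39.8% and 28.0% of the summed level in controls and 26.8%, 18.9% and 22.8% in Igf1r-deleted libraries. Loxl1 made up 48.5% and 56.8% in controls and 59.3%, 62.6% and 61.5% in Igf1r-deleted libraries, so it was the leading lysyl oxidase in every library. Neither share overlapped between genotypes. This restates the levels above, since Lox and Loxl1 make up most of the sum and lay on opposite sides without overlap. The mean share of Lox differed by −11.1 percentage points, and by −5.14 or −17.0 points when control replicate 1 or 2, respectively, was left out. With Loxl2 left out because of its shared sequence, the share of Lox was 44.4% and 32.5% against 30.6%, 22.8% and 26.6%. These values did not overlap, but they rest on the same levels and are no separate support. Lox stood at 82.0% and 49.2% of the level of Loxl1 per kilobase in controls and at 45.2%, 30.1% and 37.1% in Igf1r-deleted libraries. The sum over the 5 genes was 4113 and 3897 CPM in controls and 3981, 3498 and 3712 CPM in Igf1r-deleted libraries, which overlapped.

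**Figure D3:**
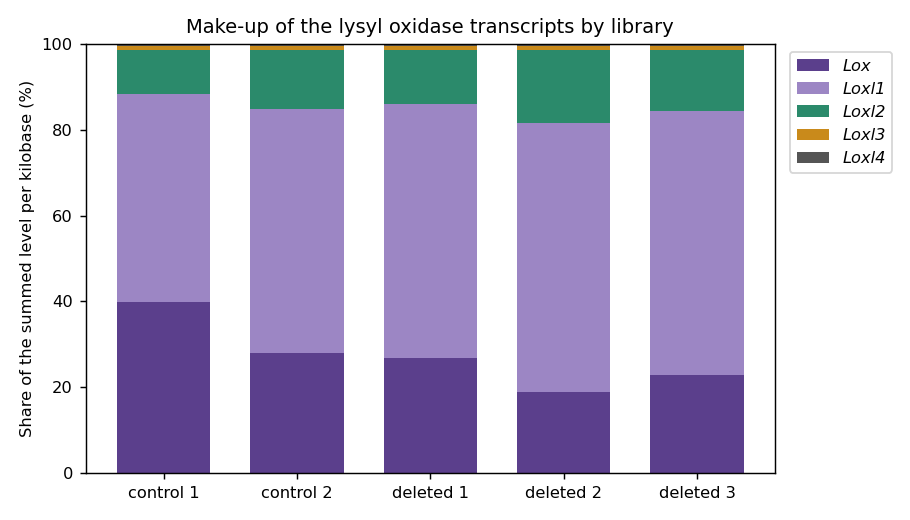
Stacked bars, 1 per library, give the share of each lysyl oxidase in their summed level per kilobase of exon, in percent. The Lox segment runs from 18.9% to 26.8% in the Igf1r-deleted libraries and is 28.0% and 39.8% in the controls, and the segments of Loxl3 and Loxl4 are thin in every library.

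Lox was also set beside Eln, which encodes tropoelastin, the soluble precursor of elastin. Eln was at 17351 and 11104 CPM in controls and at 12501, 9150 and 10370 CPM in Igf1r-deleted libraries (log2 fold change −0.41, edgeR adjusted p = 0.492), which became −0.06 or −0.71 when control replicate 1 or 2, respectively, was left out. The 2 genes had their extremes in the same libraries, with control replicate 1 highest and Igf1r-deleted replicate 2 lowest in both. Per kilobase, Lox was at 18.5% and 19.8% of Eln in controls and at 17.4%, 14.8% and 16.7% in Igf1r-deleted libraries, which did not overlap. This ratio was not tested, and how often ratios of other genes fail to overlap was not computed. The sum of the 5 lysyl oxidases over Eln, on the log2 scale of CPM, was −2.08 and −1.51 in controls and −1.65, −1.39 and −1.48 in Igf1r-deleted libraries, and these overlapped. The genes whose profile over the 5 libraries was nearest to that of Lox, among 9100 of at least 10 mean CPM, were Hsd11b1, Mgp and Cdo1 (root mean square difference of 0.0496, 0.0524 and 0.0724 on the log2 scale). Hsd11b1 encodes the enzyme that regenerates active glucocorticoid, Mgp a matrix inhibitor of calcification and Cdo1 a cysteine dioxygenase. Eln came 78th and Plod1 561st in the same ranking, and Loxl2 came 8076th.

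Of the lysyl hydroxylases, Plod1 (chromosome 4, 147909753 to 147936767, minus strand) was at 137 and 128 CPM in controls. Igf1r-deleted replicates 1, 2 and 3 were at 119, 97.9 and 90.4 CPM. All 3 lay below both controls, with a gap of 8.23 CPM (6.44% of control replicate 2, with a counting error of 2.12%) that was close to the 9.39 CPM between the controls. The log2 fold change was −0.37 (standard error 0.13, 95% interval −0.68 to −0.05, edgeR unadjusted p = 0.0273, adjusted p = 0.364). It stayed between −0.50 and −0.29 with each library left out, and over all alternatives the adjusted p from edgeR, DESeq2 or limma voom was 0.0999 to 0.9996. Without control replicate 1, Igf1r-deleted replicate 2 or Igf1r-deleted replicate 3, neither Lox nor Plod1 had an unadjusted p under 0.05, so that the count of members was 0. The share of all genes was then smaller too, at 2.76%, 6.58% and 7.35%, respectively.

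Plod2 (chromosome 9, 92542223 to 92608428, plus strand), which hydroxylates the telopeptides that anchor crosslinks and is a known target of hypoxia and TGF-β, was at 63.8 and 59.0 CPM in controls. It was at 71.7, 55.1 and 61.5 CPM in Igf1r-deleted libraries, which lay on both sides of the controls (log2 fold change 0.03, 95% interval −0.27 to 0.34, edgeR adjusted p = 0.933). Plod3 (chromosome 5, 136987019 to 136996648, plus strand), which also transfers glucose to hydroxylysine, was at 76.4 and 80.5 CPM in controls and at 79.8, 70.3 and 62.4 CPM in Igf1r-deleted libraries. Replicates 2 and 3 were lower than both controls and replicate 1 lay between them (log2 fold change −0.15, 95% interval −0.43 to 0.14, edgeR adjusted p = 0.635), with −0.25 and −0.067 when Igf1r-deleted replicates 1 and 3, respectively, were left out. Of its exon bases 11.9% overlap other genes, mainly Znhit1 on the opposite strand. Plod1 held 41.4% and 39.6% of the summed Plod level per kilobase in controls and 36.3%, 36.0% and 34.6% in Igf1r-deleted libraries, a share that did not overlap and was not tested.

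The α subunits of prolyl 4-hydroxylase carry the catalytic site. P4ha1 (chromosome 10, 59323296 to 59373304, plus strand), the main isoform in most cells, was at 52.9 and 60.7 CPM in controls and at 72.3, 52.6 and 56.0 CPM in Igf1r-deleted libraries. Igf1r-deleted replicate 1 was highest and replicate 2 lowest, so the genotypes overlapped (log2 fold change 0.08, 95% interval −0.28 to 0.45, edgeR adjusted p = 0.833). P4ha2 (chromosome 11, 54100095 to 54131665, plus strand), typical of cartilage and bone, was at 10.5 and 14.7 CPM in controls and at 16.9, 13.5 and 13.5 CPM in Igf1r-deleted libraries. Control replicate 2 lay within the range of the Igf1r-deleted libraries (log2 fold change 0.22, 95% interval −0.23 to 0.67, edgeR adjusted p = 0.651). The sum of P4ha1 and P4ha2 was divided by that of the fibrillar collagens Col1a1, Col1a2, Col3a1, Col5a1 and Col5a2. P4ha3, a further α subunit (36.7 ± 10.4 and 58.0 ± 15.1 CPM), was not included. In CPM, the ratio was 0.268% and 0.288% in controls and 0.344%, 0.337% and 0.308% in Igf1r-deleted libraries. The log2 ratio was 0.25 higher in the Igf1r-deleted libraries and did not overlap. The levels of 31.0% of all genes tested did not overlap either, but that share is for single genes, and none was computed for ratios. The sum of P4ha1 and P4ha2 itself overlapped (63.4 and 75.4 CPM in controls against 89.2, 66.0 and 69.4 CPM). The log2 ratio of the 3 lysyl hydroxylases to these collagens overlapped (−6.42 and −6.61 against −6.58, −6.45 and −6.71). Neither ratio was tested.

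**Figure D4:**
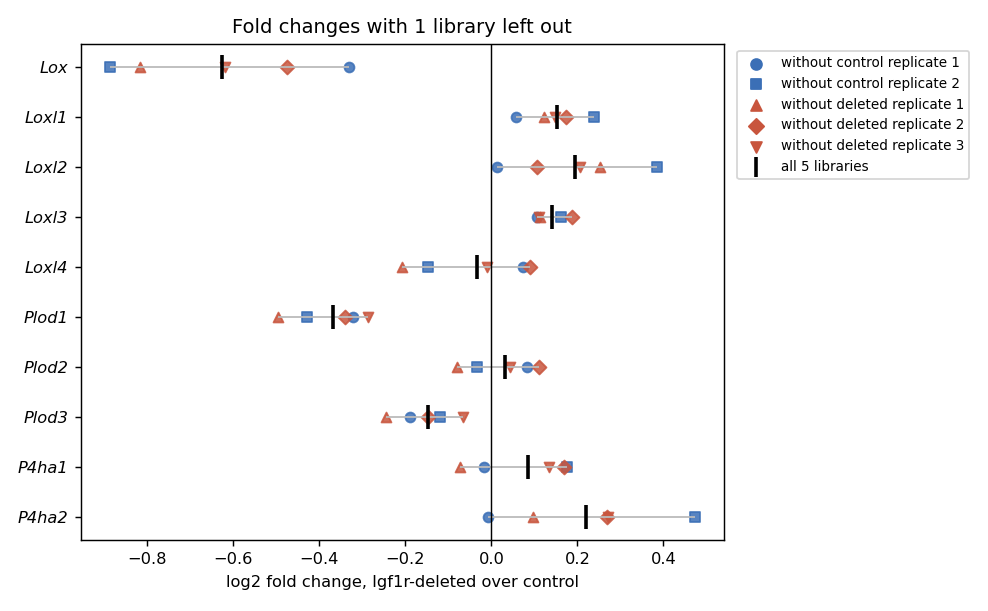
Each row gives the log2 fold change of 1 gene with each library left out in turn (colored symbols) and with all 5 libraries (black bar), from edgeR. Lox runs from −0.89 to −0.33 and Plod1 from −0.50 to −0.29, while Loxl4, Plod2, P4ha1 and P4ha2 have values on both sides of 0.

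P4ha1, P4ha2 and Plod2 are textbook targets of hypoxia-inducible factors, so the 250 bases before the RefSeq start (GRCm38.p6) are shown for Plod1, which had the smallest unadjusted p of the members, and for P4ha1 and P4ha2. Windows from the RefSeq promoter table were examined for 5 of the 10 genes (Plod1, Plod3, P4ha1, P4ha2 and Loxl4). No window was examined for the other members, Lox among them, so nothing is said here of their promoters. Capitals mark ACGTG, 1 form of the core of the hypoxia response element, and the GC box (GGGCGG), on either strand. Sequences are written 5′ to 3′ along the strand of the gene. The windows are chr4:147936777-147937026 (minus strand) for Plod1, chr10:59323046-59323295 (plus strand) for P4ha1 and chr11:54100674-54100923 (plus strand) for P4ha2, and the last lies in an intron of the gene as annotated.
Plod1: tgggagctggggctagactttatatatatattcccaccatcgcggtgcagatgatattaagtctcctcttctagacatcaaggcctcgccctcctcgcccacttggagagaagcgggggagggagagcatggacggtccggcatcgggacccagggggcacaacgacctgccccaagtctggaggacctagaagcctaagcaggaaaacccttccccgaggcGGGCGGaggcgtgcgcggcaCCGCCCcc
P4ha1: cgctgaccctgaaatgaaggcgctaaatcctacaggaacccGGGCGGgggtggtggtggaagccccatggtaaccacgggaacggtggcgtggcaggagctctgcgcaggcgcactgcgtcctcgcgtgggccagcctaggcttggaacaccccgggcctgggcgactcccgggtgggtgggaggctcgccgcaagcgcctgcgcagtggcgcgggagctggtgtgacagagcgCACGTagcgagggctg
P4ha2: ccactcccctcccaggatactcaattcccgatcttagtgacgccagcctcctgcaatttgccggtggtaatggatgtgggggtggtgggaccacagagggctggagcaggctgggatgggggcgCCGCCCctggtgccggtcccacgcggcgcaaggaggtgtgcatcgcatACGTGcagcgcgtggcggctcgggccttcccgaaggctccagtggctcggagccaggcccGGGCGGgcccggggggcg
P4ha1 and P4ha2 each held 1 match to ACGTG and Plod1 held 0, where 16.6% of 32851 promoter windows of this length held at least 1. The form GCGTG was not searched, and it occurs unmarked in each window shown, so the 0 of Plod1 covers ACGTG only. Of the windows not shown, which overlap annotated exons, that of Plod3 held 1 match to ACGTG and 0 GC boxes, and that of Loxl4 held 0 and 3. The GC box was matched 2 times in Plod1, 1 time in P4ha1 and 2 times in P4ha2, and 32.7% of all windows held it. The E-box CACGTG, which contains ACGTG, had 0 matches in these 3 windows (6.0% of all windows held it), as did the FOXO site TGTTTAC (3.2%), and TATAAA was found 1 time in Plod1 (12.4%). A match of letters is not a bound site.

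Per kilobase of exon, the level of the 10 genes spanned a wide range. Loxl1 led with 518 ± 47.3 CPM per kilobase in controls (SD, n = 2) and 576 ± 20.2 in Igf1r-deleted libraries (SD, n = 3), followed by Lox with 334 ± 89.1 and 217 ± 50.8. Loxl2 came next (119 ± 21.8 and 136 ± 13.8). Below these lay Plod1 (19.6 ± 0.982 and 15.2 ± 2.23), Plod3 (17.4 ± 0.635 and 15.7 ± 1.92), P4ha1 (13.8 ± 1.34 and 14.6 ± 2.56) and Plod2 (11.4 ± 0.622 and 11.6 ± 1.55). The lowest were Loxl3 (8.47 ± 0.249 and 9.34 ± 0.573), Loxl4 (4.60 ± 0.486 and 4.50 ± 0.916) and P4ha2 (2.01 ± 0.476 and 2.34 ± 0.319). Over the 5 libraries, the ranges of neighbors in this order overlapped from Plod1 through Plod3 and P4ha1 to Plod2, and not elsewhere.

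The genes around the enzymes were taken from 12 lists, of which 125 genes were tested. Of these, 76 were lower and 49 higher (median log2 fold change −0.09, beside 0.015 over all genes), 0 had an adjusted p under 0.05 by edgeR (smallest 0.354), and 9 lower and 8 higher genes had an unadjusted p under 0.05 (13.6%, beside 12.4% of all genes). With library totals 66 were lower and 59 higher. When control replicate 1 was left out, the fold changes of 19 of the 34 other named genes were over 1.5 times smaller and 1 turned sign. Among the 8 partners of prolyl hydroxylation, 2 were lower and 6 higher, with a median of 0.07. P4ha3, a further α subunit, was at 36.7 ± 10.4 CPM in controls and 58.0 ± 15.1 in Igf1r-deleted libraries (log2 fold change 0.66, edgeR adjusted p = 0.384). Leprel2 (P3h3), a prolyl 3-hydroxylase family member, was at 127 ± 2.52 and 141 ± 6.91 CPM. P4hb, the β subunit shared by all prolyl 4-hydroxylases, was at 879 ± 49.9 and 849 ± 117 CPM (log2 fold change −0.05). Of 6 partners of lysyl hydroxylation, 4 were lower and 2 higher (median −0.07). Colgalt2, which adds galactose to hydroxylysine, was at 34.2 ± 9.05 and 21.5 ± 3.79 CPM (log2 fold change −0.67, standard error 0.20). Tmem38b, an ion channel of the endoplasmic reticulum that collagen hydroxylation depends on, was at 90.0 ± 34.9 and 51.9 ± 9.95 CPM (−0.79, standard error 0.25, edgeR adjusted p = 0.354 for both). Without control replicate 1, Colgalt2 was −0.38 and Tmem38b −0.34.

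In procollagen folding and export, 1 of 10 genes was lower and 9 were higher (median 0.10). Creb3l1, a transcription factor of collagen secretion, was at 107 ± 24.0 and 148 ± 10.4 CPM (log2 fold change 0.46, edgeR adjusted p = 0.354), and Sec24d, a coat protein of the vesicles that export procollagen, at 104 ± 27.1 and 138 ± 3.77 CPM (0.41, adjusted p = 0.387). Without control replicate 1, Creb3l1 was 0.24, Sec24d 0.16 and the median of the list 0.027. Serpinh1, the collagen chaperone, was at 1611 ± 189 and 1832 ± 249 CPM. Among the substrates, all 8 fibrillar collagens were lower under each of the 4 scalings (median −0.20 with TMM), 0 of them with an unadjusted p under 0.05 by edgeR, and 10 of 12 other collagens were lower (median −0.15). Col1a1 was at 6368 ± 566 and 6039 ± 975 CPM (log2 fold change −0.08, but 0.0061 if control replicate 2 was left out and 0.014 if Igf1r-deleted replicate 2 was), Col1a2 at 7014 ± 505 and 6430 ± 920 CPM, and Col3a1 at 9338 ± 649 and 8192 ± 1122 CPM. The smallest unadjusted p among fibrillar collagens belonged to Col5a2 (790 ± 27.9 and 686 ± 75.4 CPM) and Col11a1 (10.3 ± 1.997 and 6.62 ± 3.61 CPM), and among the others to Col4a4 (27.7 ± 0.111 and 21.1 ± 1.996 CPM) and Col6a1 (2858 ± 228 and 2180 ± 363 CPM). Elastic fiber genes divided into 7 lower and 7 higher, with a median of −0.04 that was 0.03 with library totals and −0.14 or 0.047 when Igf1r-deleted replicate 1 or 2, respectively, was left out. Fbn2, a fibrillin of young microfibrils, was at 180 ± 8.28 and 130 ± 21.2 CPM (log2 fold change −0.47), and Ltbp2, a microfibril-binding protein, at 1378 ± 341 and 1868 ± 162 CPM (0.44, or 0.20 without control replicate 1).

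Proteinases and their helpers that mature procollagen or pro-lysyl oxidase were lower in 8 of 9 genes (median −0.16). Fn1, whose product fibronectin binds the proteinase and lysyl oxidase, was at 17316 ± 1659 and 11966 ± 3157 CPM (log2 fold change −0.53, edgeR adjusted p = 0.409), and Adamts14, a procollagen N-proteinase, at 23.6 ± 6.25 and 19.3 ± 0.337 CPM. Bmp1, which cleaves pro-lysyl oxidase, was at 229 ± 3.81 and 235 ± 10.04 CPM. All 8 copper genes were lower (median −0.14; 6 of 8 with library totals), among them Slc31a2, a copper transporter (26.2 ± 6.29 and 19.3 ± 1.08 CPM), and Steap4, a metalloreductase (68.6 ± 23.6 and 44.3 ± 20.9 CPM). Ascorbate and iron supply divided into 4 lower and 4 higher. Its iron importers Slc11a2 (23.8 ± 1.82 and 30.8 ± 1.60 CPM) and Tfrc (10.7 ± 3.54 and 17.1 ± 4.24 CPM) had the smallest unadjusted p.

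Of 23 genes of oxygen sensing and the hypoxia response, 14 were lower and 9 higher (median −0.14). Mxi1, a MYC antagonist, was at 105 ± 29.8 and 72.6 ± 1.34 CPM (log2 fold change −0.53), and Bnip3, a mitophagy gene induced by hypoxia, at 42.8 ± 20.6 and 24.0 ± 3.64 CPM (−0.84). Without control replicate 1 these were −0.21 and −0.25. Of 14 TGF-β response genes, 8 were lower and 6 higher (median −0.08). Pmepa1, a feedback inhibitor of the pathway, was at 231 ± 13.1 and 333 ± 40.5 CPM (0.53, standard error 0.13, edgeR adjusted p = 0.354), and the ligand Tgfb3 at 222 ± 59.6 and 319 ± 49.9 CPM (0.53, standard error 0.19, edgeR adjusted p = 0.372). Amine oxidases outside the family divided into 2 lower and 3 higher, with Aoc1 at 1.16 ± 0.797 and 0.489 ± 0.0648 CPM and Maob at 5.73 ± 0.932 and 7.54 ± 0.275 CPM.

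**Figure D5:**
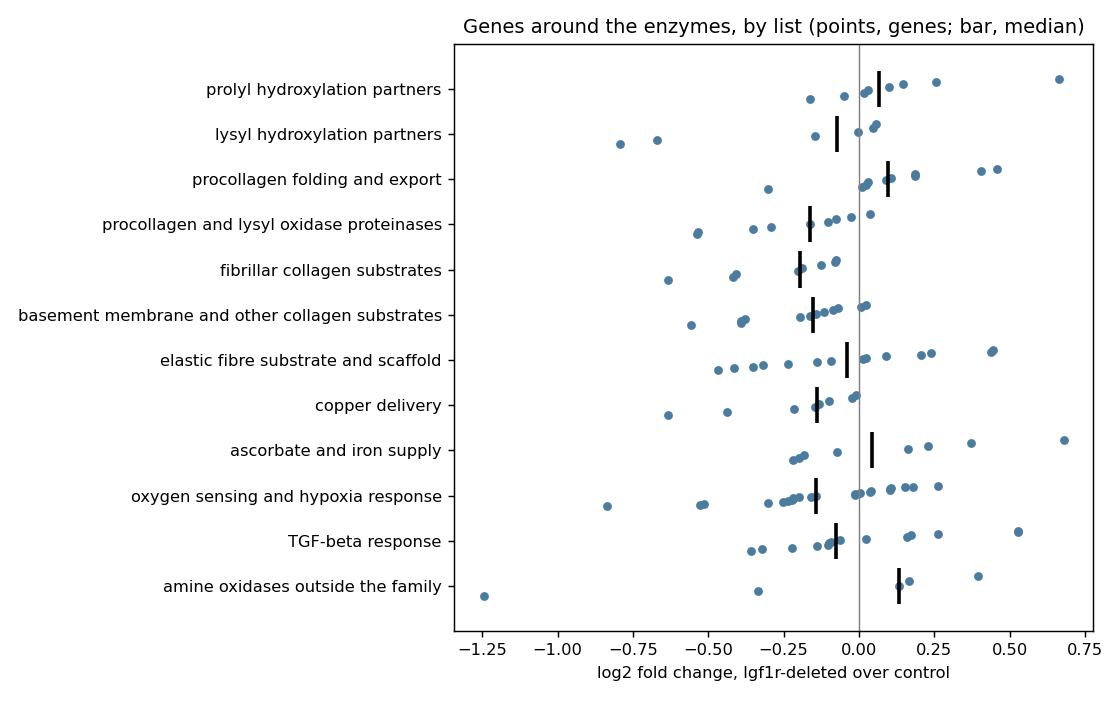
Each row is a list of genes around the enzymes, each point the log2 fold change of 1 tested gene (Igf1r-deleted over control, edgeR) and each black bar the median. The medians lie between −0.20 for the fibrillar collagens and 0.13 for amine oxidases outside the family, and the points of most lists fall on both sides of 0.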

How the data were processed

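The 5 RNA-Seq libraries from GFP+ P6 lung cells were used, grouped by the genotype and number in their labels. For these, the authors used a NEBNext Ultra kit, Trim Galore for trimming, Bowtie2 for alignment (mm10) and GenomicAlignments for counting. They deposited raw counts per gene without normalization, and these were used as deposited. Versions, the gene annotation, strand and the treatment of multiply matching reads are not given in the sources used here, and FPKM values from Cufflinks were not used.

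Counts were tested with edgeR 4.0.16 (R 4.3.3) by its two-sided quasi-likelihood F test, with TMM factors (0.961 to 1.06), filterByExpr and no covariate, and p was adjusted by Benjamini-Hochberg over 15298 genes. The script was tested on simulated data with known changes, all larger than those of the 10 enzymes. This checks the code, and not its power for these genes. Log2 CPM used a prior count of 2. Alternatives were DESeq2 1.42.0, other scalings and filters, robust empirical Bayes, limma voom (limma 3.58.1), a replicate block and leaving out each library. The genes, lists and comparisons were chosen with earlier results of these data known. Ratios to single genes and shares were added after seeing the data. Named genes were the 10 enzymes, Igf1r, the 2 smallest unadjusted p of each list, Eln, Col1a1, Col1a2, Col3a1, P4hb, Serpinh1 and Bmp1, and the 3 profiles nearest to that of Lox, the member with the largest absolute log2 fold change. Further marker lists (lipofibroblast, adventitial, pericyte, chondrocyte and mesothelial) had summed levels of 14569 to 15328, 5236 to 6510, 886 to 1094, 14.6 to 40.0 and 444 to 450 CPM in controls and 12967 to 14673, 4858 to 6113, 860 to 1051, 8.10 to 38.9 and 341 to 454 CPM in Igf1r-deleted libraries. Exon lengths, gene overlaps and 30-base sequences shared between genes were taken from GENCODE on mm10. Depth limits cover counting error only.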

Additional observations from a re-analysis of the deposited data

How the results depend on the processing

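Of 140 recomputed fold changes of the members, 132 kept their direction, and 8 in 4 genes changed direction. In the main fit 0 members were past the threshold (adjusted p under 0.05). Without control replicate 1, 3 of the 10 members turned sign and 3 had fold changes over 1.5 times smaller. Without control replicate 2, 1 turned sign and 5 had fold changes over 1.5 times larger. With library totals Loxl4 was 0.034 and P4hb 0.018. With each library left out, Loxl4 ran from −0.21 to 0.089, Plod2 from −0.081 to 0.11, P4ha1 from −0.072 to 0.18, P4ha2 from −0.0088 to 0.47, Adamts14 from −0.55 to 0.00047, Col1a1 from −0.22 to 0.014, P4hb from −0.17 to 0.0080 and Bmp1 from −0.0026 to 0.059. The cause was not tested. Of 476 values of the other named genes, 467 were unaltered in direction and side, 6 changed direction, and 3 came past the threshold (Pmepa1 with DESeq2, Tmem38b and Hsd11b1 with the block by replicate number). Members with an unadjusted p under 0.05 numbered 0 to 2. Those without overlap numbered 4 in the main fit and 2 with DESeq2's size factors. They numbered 5 without Igf1r-deleted replicate 1, where Plod3 joined them, and 4 without Igf1r-deleted replicate 2 or 3. Over all genes, adjusted calls were 200 by DESeq2 and 0 to 45 with a library left out, and genes with an unadjusted p under 0.05 numbered 433 to 3183, against 1897. Igf1r was −0.94 and past the threshold by DESeq2.

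Replicate numbers are shared by 2 pairs of libraries. Deviations from the group means correlated at 0.208 and 0.121 within the pairs and at 0.119 between control replicate 2 and Igf1r-deleted replicate 3. With only 2 controls their deviations mirror each other, so each value recurs with the opposite sign for the other control. These correlations therefore cannot decide whether the replicate numbers mark pairs. With a replicate block 136 genes and 0 members were called by edgeR, and Igf1r was −1.04 and past the threshold.

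List medians ran, with a library left out, from 0.057 to 0.16 for lysyl oxidases, −0.0083 to 0.12 for prolyl partners, −0.20 to −0.025 for lysyl partners, 0.073 to 0.19 for ascorbate and iron, −0.16 to −0.074 for hypoxia, −0.070 to −0.014 for TGF-β −0.12 to 0.12 for amine oxidases, −0.14 to 0.047 for elastic fibers, 0.027 to 0.20 for folding and export, −0.30 to −0.072 for proteinases, −0.29 to −0.11 for fibrillar collagens, −0.32 to −0.10 for other collagens, −0.22 to −0.066 for copper and −0.013 to 0.32 for the prolyl 4-hydroxylase α subunits. With library totals they were 0.14 for prolyl partners, −0.073 for hypoxia and −0.0063 for TGF-β. The difference in the log2 ratio of lysyl oxidases to Eln ran from 0.0038 to 0.57. The lowest count of any member was 363, for P4ha2. Counting error still limits the calls of no overlap. The gap of Loxl3 (0.446%) was smaller than its counting error (3.63%), and that of Loxl1 (0.574%) was close to its own (0.536%).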

Other observations

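Igf1r-deleted replicate 1 had the highest level of 5 of the 10 enzymes, control replicate 1 the lowest of 4, and Igf1r-deleted replicate 2 the lowest of 4. Mgp, whose profile was near that of Lox, was at 957 ± 275 CPM in controls (SD, n = 2) and 642 ± 175 CPM in Igf1r-deleted libraries (SD, n = 3), and Hsd11b1 at 284 ± 65.7 and 175 ± 42.6 CPM. Both were picked for their likeness to Lox over these same libraries, so their lower means follow from the choice and are no separate support.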
